A study of Homo sapiens and Mus musculus with 5 samples.

Results

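The RNA that SNP-bearing DNA fragments produced in SH-SY5Y cells was set against the plasmid pool from which it came, to ask which fragments were transcribed more or less than their share of the pool and whether the alleles of a SNP differed. SH-SY5Y is a cloned human neuroblastoma line. All alleles of the SH-SY5Y table with a mean count of 10 or more over 3 RNA and 3 input libraries were taken, which gave 1562 alleles of the 1625 that the series holds over its 4 lines. The table has 1922 entries for alleles, 2 for each fragment. The minimum removed 360 of them, which were 0 in every library, and the lowest mean of the others was 102.7 counts. The alleles came from 961 fragments and 347 SNPs, and 601 fragments had both alleles.

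The SH-SY5Y RNA came from cells transfected with the purified plasmid library in 3 parallel experiments. The input was the same plasmid library, amplified before transfection, in 3 libraries. The comparison between lines used RNA of Neuro-2a (mouse neuroblastoma, 3 libraries), HEK-293T (human embryonic kidney, 3 libraries) and PC-12 (rat pheochromocytoma, although the label reads mouse, 2 libraries). All lines received that pool. The labels name no drug, no genetic change and no transfection day. The protocols call the libraries biological replicates without saying whether separate cultures were grown, so p-values measure the spread between these libraries, which may be technical. The tables hold reporter counts and no endogenous gene, so the identity of the line could not be checked against its markers.

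An enhancer is a stretch of DNA that raises transcription from a promoter, often in certain cell types only, and most variants linked to schizophrenia lie outside coding sequence. In STARR-seq a candidate fragment is cloned into the transcribed part of a reporter, so that an active fragment is read as its own RNA. A fragment cut out of the genome lacks its native chromatin, and the genes named are addresses of the SNPs, whose own expression was not measured. Gene names are those of GRCh38.p14 that contain a position, or the nearest protein-coding gene where "near" is written. No source used here states the build of the positions, and each name holds only under that build. Up to 3 overlapping fragments carried a SNP, and they are called its 50-base, 100-base and 150-base placements by the length of sequence in front, with 150, 100 or 50 bases behind. Alleles are numbered 1 and 2 as in the table.

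Of the SNPs, 8 had a fragment over a promoter window of RefSeq (250 bases before to 50 after a gene start, GRCh38.p14), and 2 of these had alleles called in more than 1 fragment. The covered stretches of those 2 windows are shown because these SNPs differed in direction, with called alleles below the input near FTCDNL1 and above it near BCL2L12. Each is the part of the window within 100 bases of the SNP, on the gene's strand. Capitals mark bases within 50 of the SNP, which all 3 placements share. The FTCDNL1 stretch is chr2:199851296-199851442 on the minus strand, bases -250 to -104 from the start, and the BCL2L12 stretch is chr19:49665683-49665770 on the plus strand, bases -250 to -163.
FTCDNL1: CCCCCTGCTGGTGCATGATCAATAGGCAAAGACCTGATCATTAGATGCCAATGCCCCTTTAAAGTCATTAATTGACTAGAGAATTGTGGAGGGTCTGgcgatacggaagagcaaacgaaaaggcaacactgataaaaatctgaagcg
BCL2L12: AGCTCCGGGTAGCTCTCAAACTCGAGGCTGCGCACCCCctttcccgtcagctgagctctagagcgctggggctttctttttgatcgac
The letters CCAAT, the core of a promoter element, were found 1 time in the FTCDNL1 stretch on either strand, inside the capitals, and 18.4% of 35116 RefSeq promoters hold them in the same stretch. CANNTG, the E-box of basic helix-loop-helix factors, was found 1 time in the BCL2L12 stretch, outside the capitals, and 29.9% of promoters hold it there. The FTCDNL1 stretch had no CANNTG (44.6% of promoters have it) and the BCL2L12 stretch no CCAAT (10.96%), and the 2 motifs do not overlap each other. A match is a match of letters only.

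The RNA libraries held 10201521, 7178719 and 7329597 counts in replicates 1, 2 and 3, and the input libraries 7705636, 6459985 and 8276001. A count of 0 stood for 2.50%, 2.43% and 4.23% of the alleles in the RNA libraries and for at most 0.384% in an input library. The alleles at 0 in 1 RNA library had a median of 952.5 counts in the others, and just 7 RNA values lay between 1 and 9, so a 0 was seldom the end of a range of low values. The 10 most abundant alleles took 4.65%, 5.63% and 6.50% of the RNA, against 2.91% to 2.99% of the input. Reads made by PCR are not independent molecules, and depth bounds the counting error alone.

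Replicate 1 lay closer to the input than replicates 2 and 3 did. Activity is given throughout as the log2 RNA over input of an allele, where 0 is the level of a typical allele in that library. Its SD over alleles with counts above 0 was 1.17 in replicate 1, 1.59 in replicate 2 and 1.63 in replicate 3. More than a 2-fold departure from the typical allele was seen for 20.3%, 40.3% and 43.5% of alleles in the 3 libraries, and more than a 4-fold departure for 5.69%, 15.9% and 15.9%. Across alleles, log2 CPM (counts per library total) of replicates 2 and 3 correlated with r = 0.875 (n = 1458), while replicate 1 correlated with them at 0.680 (n = 1485) and 0.652 (n = 1457). Against the input, r was 0.764 to 0.768 for replicate 1, 0.563 to 0.567 for replicate 2 and 0.519 to 0.526 for replicate 3. These alleles share their libraries and the abundance of their plasmids, and the values are descriptions.

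The 2 alleles of a fragment, which share all their sequence but the SNP, gave like activity in replicate 1 and much less so in replicates 2 and 3. Over fragments with both alleles above 0 counts, Pearson's r between the alleles' activities was 0.569 in replicate 1 (n = 562), 0.174 in replicate 2 (n = 571) and 0.138 in replicate 3 (n = 547). The alleles were more than 2-fold apart in 13.9% of fragments in replicate 1, 51.0% in replicate 2 and 52.3% in replicate 3, and their median distance was 0.40, 1.05 and 1.06 on the log2 scale. Leaving out fragments with an allele among the rarest 25% of the input gave r = 0.669, 0.397 and 0.312. Taking a count of 0 as 0.5 counts gave 0.264, 0.109 and 0.0337, with rank correlations of 0.602, 0.151 and 0.123. In the other lines, too, r was higher in replicate 1 (Neuro-2a 0.445, HEK-293T 0.753, PC-12 0.735) than in replicates 2 and 3 (0.108 to 0.228). The abundance of the 2 alleles in the input correlated with r = 0.105 over 601 fragments. What set replicate 1 apart was not tested.

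With the 3 RNA libraries in 1 fit, 116 alleles were above the input (7.43% of 1562) and 86 below it (5.51%), by edgeR's quasi-likelihood test at a Benjamini-Hochberg adjusted p of 0.05. Which side held more calls turned with the setting, with 72 above and 114 below by limma-voom, 88 and 105 without RNA replicate 2, and 91 and 109 without RNA replicate 3. At an unadjusted p of 0.05 there were 536 (34.3%). Each of the 202 alleles lay on 1 side of 0 in every RNA library, and none had a count of 0. This follows largely from passing, since libraries that lie far apart raise p. The alleles above the input had a median activity of 1.38 (0.56 to 5.78), and those below it a median of -1.62 (-5.27 to -0.53). In replicates 1, 2 and 3 taken singly, the medians of the alleles above the input were 0.94, 1.51 and 1.47, and those of the alleles below it -1.56, -1.69 and -1.78. Replicate 1 was the lowest of the 3 for 87 of the 116 alleles and the highest for 45 of the 86. Leaving out RNA replicate 1 raised the number of calls to 858, and leaving out any 1 input library left 3. It was 0 by limma on the log2 ratios, where the spread came from the RNA libraries alone.

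In 22 of the 601 fragments both alleles were called, 13 above and 9 below the input, and in 0 were they called in opposite directions. A further 114 fragments had 1 called allele and 465 had none. The alleles of a fragment were counted apart but share their library and nearly all their sequence. Adjusted p by edgeR (Benjamini-Hochberg) was 0.00542 to 0.0462 for these alleles. Without any 1 input library no fragment had both alleles called.

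The SNP at position 136050568 of chromosome 3, inside PPP2R3A, gave 2 of the 13 fragments above the input. PPP2R3A encodes a regulatory subunit of protein phosphatase 2A. In the 100-base placement, allele 2 had 64466, 100611 and 126886 counts in RNA replicates 1, 2 and 3, against 10696, 9746 and 12038 in the input libraries. Allele 1 of that placement had 7050, 2249 and 2110 RNA counts, against 1182, 1074 and 1309 in the input. RNA and input did not overlap for either allele, and the fitted activities were 3.34 ± 0.45 for allele 2 and 1.59 ± 0.36 for allele 1 (SE, n = 3 RNA and 3 input libraries). Replicate 1 put the alleles at 2.19 and 2.18, while replicates 2 and 3 put allele 2 at 3.51 and 3.84 and allele 1 at 1.21 and 1.12. In the 150-base placement, allele 2 had 34531, 25698 and 38654 RNA counts, against 4547, 4094 and 5073 in the input, and allele 1 had 53044, 20960 and 15145, against 9050, 7360 and 9557. The fitted activities there were 2.94 ± 0.25 for allele 2 and 1.71 ± 0.30 for allele 1.

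With 50 bases in front, the PPP2R3A SNP lay on the other side of the input. Allele 2 had 4691, 1527 and 2198 RNA counts, against 14698, 11614 and 15181 in the input, and was called below it at -2.34 ± 0.26 (SE, n = 3 and 3; edgeR Benjamini-Hochberg adjusted p = 0.0103). Allele 1 stood at -1.22, -3.15 and -0.96 in the 3 RNA libraries and did not pass (adjusted p = 0.114 by edgeR). All 12 values of the 100-base and 150-base placements were above 0 and all 6 of the 50-base placement below 0. Placements differ in the bases in front and behind together, and the difference between them was not tested.

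By the mean of both alleles, the highest fragment above the input was that in ANKRD63, at 2.94, against 2.46 and 2.33 for the PPP2R3A placements, and ALG12, STAG1 and PCNX1 came after these. The ANKRD63 fragment (50-base placement, chromosome 15, position 40279991) had an allele 2 at 1.55, 0.90 and 1.64 in replicates 1, 2 and 3 and an allele 1 at 1.11, 4.87 and 5.17, so its allele 1 reached 4.49 ± 1.03 through replicates 2 and 3. At ALG12, a mannosyltransferase gene of N-glycan assembly (chromosome 22, position 49909882), allele 2 of the 50-base placement had 37088, 37325 and 38242 RNA counts, against 13821, 11629 and 14594 in the input, which gave 1.60 ± 0.22. Allele 1 of that ALG12 fragment had 10007, 16231 and 12893, against 2697, 2450 and 2974, which gave 2.42 ± 0.37. At STAG1, a cohesin subunit gene (chromosome 3, position 136435986), allele 2 of the 150-base placement had 5472, 4082 and 3400 RNA counts, against 1915, 1578 and 2020 in the input (1.28 ± 0.19). Allele 1 of STAG1 had 42392, 19760 and 22388, against 10314, 8132 and 10596 (1.54 ± 0.14), and all 6 library values of this fragment lay between 1.18 and 1.75. At PCNX1 (chromosome 14, position 70907985, 150-base placement) allele 2 reached 1.39 ± 0.30 and allele 1 reached 1.40 ± 0.11. The libraries of the STAG1 fragment thus lay close together, and those of the ANKRD63 allele 1 far apart.

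The other fragments with both alleles above the input reached mean activities of 0.85 to 1.16. They lay in DNAJA3, which encodes a mitochondrial co-chaperone, in THAP8, a zinc finger gene, in C3orf49 and THOC7, the second a subunit gene of an mRNA export complex, and near ITIH4, a serum protease inhibitor family gene, near TBL1XR1, a corepressor subunit gene, near PRAG1 and near CORO7-PAM16.

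Of the 9 fragments below the input with both alleles, the lowest was near UBE2E2, a ubiquitin-conjugating enzyme gene 13833 bases away (chromosome 3, position 23189265, 100-base placement). Its allele 2 had 754, 780 and 709 RNA counts, against 5543, 4592 and 5821 in the input, and its allele 1 had 1940, 599 and 426, against 7880, 6299 and 8077. The fitted activities were -2.73 ± 0.27 for allele 2 and -3.02 ± 0.44 for allele 1 (SE, n = 3 and 3). RNA lay below the input in each library for both alleles. At ZDHHC2, a palmitoyltransferase gene (chromosome 8, position 17178692), allele 2 of the 50-base placement had 1906, 891 and 1972 RNA counts, against 12023, 9677 and 12956 in the input, and allele 1 had 1951, 1624 and 811, against 9082, 6953 and 9280. Those gave -2.80 for allele 2 and -2.49 for allele 1. In the 100-base placement the ZDHHC2 alleles stood at 0.32 and -0.27 and did not pass, with 0.467, 0.383 and 0.107 for allele 2 and 0.121, -0.614 and -0.428 for allele 1. The difference between these placements was not tested.

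The fragment 311425 bases from DMRTA1 (chromosome 9, position 22767165, 100-base placement) had -3.08 ± 0.62 for allele 2 and -2.26 ± 0.44 for allele 1. The fragment near STK31, a kinase gene of the testis, had -1.54 for allele 2 and -2.44 for allele 1, and, in the same order, the 150-base placement of the SNP 538397 bases from NMUR2, a neuromedin U receptor gene, had -2.40 and -0.998. FANCA, a gene of the Fanconi anaemia DNA repair complex, had -1.39 and -1.38. CRTC2, a coactivator gene of CREB, had -1.06 and -1.75, the fragment near EPHA5, an ephrin receptor gene, had -1.35 and -1.72, and the one near FTCDNL1 had -1.21 and -1.02. For the SNP near EPHA5, 366878 bases from that gene, the 100-base and 150-base placements did not pass, with fitted values between -0.05 and 0.67.

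Calls came from every placement, with 40 alleles above and 32 below the input of 506 with 50 bases in front, 43 and 30 of 532 with 100, and 33 and 24 of 524 with 150. Of the 347 SNPs, 148 had a called allele and 28 had called alleles in more than 1 fragment. Among these 28, the calls were all above the input for 13 SNPs, all below for 5 and on both sides for 10. Across SNPs, the mean activity of a fragment's alleles correlated between placements with r = 0.248 to 0.419 in replicate 1, -0.0374 to 0.198 in replicate 2 and -0.000262 to 0.187 in replicate 3 (n = 100 to 126 SNPs). Fragments of a SNP overlap, so these are descriptions of shared sequence.

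Of the 6 SNPs with the most calls above the input, OTUD7B, a deubiquitinase gene, ALG12 and the SNP near ITIH4 had no fitted value below 0. The OTUD7B SNP (chromosome 1, position 150059494) had fitted activities of 0.93 to 2.34 over its 6 alleles, and 3 of them, 1 in each placement, were called. Its allele 1 in the 50-base placement had 23574, 18028 and 16533 RNA counts, against 11232, 8805 and 11906 in the input. The other 3 OTUD7B alleles were at 0.20 to 0.34 in replicate 1 and at 0.99 to 2.31 in replicates 2 and 3. The ALG12 SNP had 0.19 to 2.42, with 3 of 6 called. THAP8 had 3 called alleles, at 0.56, 1.16 and 2.98, but its 150-base placement stood at -0.41 and -0.55 without a call. DNAJA3 had 3 called at 0.60, 0.62 and 1.22, and the SNP near ITIH4 had 3 at 0.74, 0.96 and 1.93.

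Below the input, the SNP near NMUR2 had 3 called alleles, at -0.998, -2.40 and -4.25, the last from 477, 299 and 560 RNA counts against 9601, 7598 and 9774 in the input. Its remaining alleles had 4, 121 and 0 RNA counts, against 6315, 5531 and 6880, and 175, 123 and 0, against 1630, 1250 and 1656, and did not pass. The SNP near DMRTA1 had a further call at -1.07 in the 150-base placement, where allele 1 stood at -0.47 in replicate 1 and at 1.36 and 1.54 in replicates 2 and 3. FRMD5 had 2 calls, at -2.76 and -1.34, and SLCO6A1, an organic anion transporter gene, had 2 at -0.97 and -2.16. The NMUR2 SNP was the one of these whose alleles were all below the input.

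Both promoter windows shown above belonged to SNPs with calls in 2 placements. Near FTCDNL1 (position 199851396), allele 1 of the 100-base placement had 1862, 1136 and 770 RNA counts, against 5514, 4593 and 5838 in the input, and was called at -2.08 ± 0.24. Allele 2 of that placement had 2358, 3743 and 7511, against 4441, 3862 and 4867, so that its 3 RNA libraries stood at -1.28, 0.07 and 1.07. The 50-base placement was called for both alleles, and allele 2 of the 150-base placement stood at -1.39 without a call. At the BCL2L12 window the SNP (position 49665670 of chromosome 19) also lies inside IRF3, which encodes an interferon regulatory factor. Its allele 2 had 3395, 3199 and 1777 RNA counts, against 746, 753 and 983 in the input, with 100 bases in front (1.81 ± 0.32), and 41041, 36443 and 44062, against 16906, 17853 and 24673, with 50 (1.13 ± 0.24). The other 4 alleles of this SNP stood between 0.54 and 0.85 and did not pass.

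Among single alleles, the 3 with the smallest adjusted p were all below the input. Allele 1 in MANBA, the gene of lysosomal beta-mannosidase, had 563, 445 and 405 RNA counts in its 100-base placement, against 19982, 16091 and 21081 in the input. That gave -5.46, -5.12 and -5.26 by library, which differ little beside their size. Allele 1 in PLCL1, a phospholipase C-like gene, had 649, 487 and 459, against 7876, 6721 and 8357, with -3.94, -3.68 and -3.76 by library and a fitted -3.79 ± 0.18 (SE, n = 3 and 3). Allele 1 in MAU2, which encodes a cohesin loader, had 841, 358 and 290, against 10440, 8346 and 10719, and a fitted -4.35 ± 0.29. These 3 alleles were also the 3 that remained called without input replicate 1, 2 or 3.

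The other alleles among the 8 lowest were allele 1 near PPARGC1A, a coactivator gene of mitochondrial biogenesis 370041 bases away (-4.35, -4.21 and -5.53 by library), allele 1 in TCF4, a basic helix-loop-helix factor gene (-3.74, -4.59 and -5.48), the NMUR2 allele given above, allele 1 in LIN28B, whose protein blocks let-7 maturation (-4.78, -3.41 and -4.55), and allele 1 near RALGAPA2 (-3.06, -3.18 and -6.05). All 8 had input means of 7651.3 to 19051.3 counts, well above the median of 3525.2. The TCF4 allele came from the 50-base placement, where allele 2 had 0, 341 and 248 RNA counts with an input mean of 2216.7. With 150 bases in front, allele 2 stood at -0.69, 1.67 and 1.73 by library. With 100, allele 1 stood at -0.72, 0.78 and 1.32 and allele 2 at 0.01, 0.31 and 0.50. The alleles of these longer fronts did not pass, but were called above the input in replicates 2 and 3 alone.

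The 8 highest alleles past the threshold had low input means of 54.3 to 760 counts, and all 8 stood lower in replicate 1 by more than 1 log2 unit than in either other library. Among these 8, the highest in each library was allele 1 in the protocadherin gamma cluster, a gene array for cell adhesion molecules of neurons, at 4.68, 6.004 and 6.23. The others were allele 2 near ZSCAN2 (1.40, 4.82 and 5.36), the ANKRD63 allele, allele 1 in VRK2, a serine/threonine kinase gene (0.94, 4.71 and 5.10), allele 2 in LY6H (1.92, 4.91 and 4.62), allele 1 in CNOT1, the scaffold gene of the CCR4-NOT deadenylase (1.51, 4.47 and 4.90), allele 2 in STON2, an endocytic adaptor gene (1.86, 5.01 and 3.34), and allele 2 near DTNB, a dystrobrevin gene (1.87, 4.07 and 4.51). Adjusted p by edgeR (Benjamini-Hochberg) was 0.00557 to 0.0488 for these 8. Abundance in the input went with the direction of the calls over the whole table. In 4 classes of equal size, from the rarest to the most abundant alleles, 26, 22, 29 and 39 were called above the input and 7, 6, 24 and 49 below it. In replicate 3 the median activity of these classes was 0.64, -0.02, -0.14 and -0.26, in replicate 2 it was 0.19, -0.07, -0.11 and -0.24, and in replicate 1 it was -0.05, -0.000773, -0.05 and -0.07. The part of input abundance in the calls was not tested.

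Replicates 2 and 3 alone gave 480 alleles above the input (30.7%) and 378 below it (24.2%) by the same edgeR test, 858 in all (54.9%). The spread in that fit came from 2 RNA libraries and from the input libraries, which differed far less among themselves. These calls thus rest on little replication of the RNA. The 480 had a median of 1.32 in that fit and of 0.23 in replicate 1, and the 378 had -1.03 in that fit and -0.44 in replicate 1, with a 0 taken as 0.5 counts. Both fits use the same input libraries. Replicate 1 alone, with the spread taken from the input, stood past the same threshold for 604 alleles above the input (38.7%) and 673 below it (43.1%), 1277 in all (81.8%), which compares 1 library with the input and has no RNA replicate behind it. In replicates 2 and 3 together, 65 of 601 fragments had both alleles above the input, 51 had both below and 67 had alleles called in opposite directions. A further 296 fragments had 1 called allele and 122 had none.

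By size, the highest alleles of replicates 2 and 3 with no count of 0 were mostly ones that replicate 1 put near 1 or below. After the protocadherin gamma allele, allele 1 in GALNT2, a glycosyltransferase gene, had 409, 7668 and 8045 RNA counts in replicates 1, 2 and 3, against 185, 166 and 183 in the input, and stood at 0.81, 5.72 and 5.78. Allele 2 of a SNP 250219 bases from NCAM2, a neural adhesion gene, had 680, 11490 and 17053, against 408, 344 and 418, and stood at 0.42, 5.17 and 5.74. Allele 2 of rs112345465 stood at 1.15, 5.77 and 5.31, and allele 1 in ENOX1 at 0.83, 5.77 and 4.72. Among the lowest, MANBA, TCF4, PPARGC1A and MAU2 were low in all 3 libraries. Allele 2 in TRPM6, a magnesium channel gene, had 2904, 26 and 136 RNA counts, against 2705, 1789 and 1365 in the input, and stood at 0.24 in replicate 1.

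Whether the alleles of a SNP differ was tested as the activity of allele 2 minus that of allele 1, over the 601 fragments. A single fragment passed (0.166%), the 150-base placement at position 141474289 of chromosome 5 in the protocadherin gamma cluster. Its allele 2 had 343, 1086 and 1464 RNA counts, against 1661, 1260 and 1568 in the input, and its allele 1 had 2290, 3586 and 4187, against 74, 57 and 74. By library the allelic effect was -7.18, -6.17 and -5.96, and the fitted effect was -6.44 ± 0.51 (SE, n = 3 and 3; edgeR quasi-likelihood Benjamini-Hochberg adjusted p = 0.0200). In the input, allele 2 of this fragment had a mean of 1496.3 counts and allele 1 a mean of 68.3. The call was lost without any 1 input library, without RNA replicate 2 and by limma-voom. In the 100-base placement of this SNP, allele 1 had a fitted activity of 0.46 and allele 2 had 0.21. With 50 bases in front, allele 1 stood at -0.77, -2.04 and -1.56 by library. None of these alleles was called, and the difference between the placements was not tested. DESeq2 called 27 fragments and limma-voom 0 (89 at an unadjusted p of 0.05).

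At an unadjusted p of 0.05, edgeR listed 81 fragments (13.5%), 41 with allele 2 and 40 with allele 1 the more active. All had the same sign in the 3 RNA libraries, which a small p largely requires. None of the following passed the adjustment, and adjusted p (edgeR, Benjamini-Hochberg) was 0.355 for each. Toward allele 2 the largest were CNNM2, a magnesium homeostasis gene (1.29, 6.33 and 6.75 by library), ANKRD45 (1.88, 3.98 and 5.29), a SNP near LOC124901355 (1.10, 3.64 and 4.99), the SNP near ZSCAN2 (0.34, 4.39 and 4.41), LY6H (0.58, 4.65 and 3.81) and FOXO3, a forkhead factor gene (1.44, 4.87 and 2.81). Toward allele 1 they were VRK2 (-1.22, -5.91 and -6.63), MSRA, a methionine sulfoxide reductase gene (-0.83, -4.28 and -4.62), HSPE1-MOB4 (-1.11, -3.45 and -3.67), a SNP 73 bases from IZUMO1, the gene of a sperm protein (-0.43, -3.75 and -3.54), and NDRG4 (-0.56, -3.04 and -3.75). The CNNM2 allele 2 had uneven input counts, at 147, 551 and 194 in the input libraries. In all 11, replicate 1 had the smallest effect.

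The ANKRD45 fragment had the largest effect of these in replicate 1. Its allele 2 had 2020, 10644 and 8366 RNA counts in replicates 1, 2 and 3 with an input mean of 802.7, and its allele 1 had 350, 430 and 136 with an input mean of 511.7. In VRK2 (position 57980939, 100-base placement), allele 2 had 7163, 2364 and 1893 RNA counts with an input mean of 6687.3, and allele 1 had 829, 7035 and 9285 with an input mean of 330.0. The VRK2 alleles were thus within 1.22 log2 units in replicate 1 and more than 5 apart in the others.

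In replicates 2 and 3 alone, 282 of 601 fragments passed (46.9%), 141 toward each allele, and 260 of them had no count of 0 in any of the 6 libraries. As for activity, the spread came from 2 RNA libraries and from the input libraries, which differed far less among themselves. The median size of the effect in those 260 was 1.63 in the fit of replicates 2 and 3 and 0.38 in replicate 1, and 227 of the 260 were under 1 in replicate 1. Both fits use the same input libraries, so their signs are not counted against each other, and the 5 largest in each direction follow with replicate 1 beside them. In PPP1R21 (50-base placement), allele 2 had 217, 4055 and 6040 RNA counts with an input mean of 218.3, and allele 1 had 3843, 444 and 319 with an input mean of 2459.0, so that the effect was -0.66 in replicate 1 and 6.68 and 7.73 in replicates 2 and 3. In VRK2 at position 57916303, it was 0.84 in replicate 1 and -5.67 and -5.59 in the others. A fragment in FOXO3 at position 108666981 of chromosome 6 had 0.04, -4.42 and -5.18. The 50-base placement of the VRK2 SNP at position 57980939 had 1.30, 6.55 and 2.998. A SNP 65802 bases from MRPS30, a mitochondrial ribosome gene, had 0.68, 6.01 and 3.26. The other large ones were CNNM2, ANKRD45, MSRA, the 100-base placement of VRK2 position 57980939 and the protocadherin fragment, all given above. That 100-base VRK2 placement had -1.22, -5.91 and -6.63, on the other side of 0 from the 50-base placement in each library.

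Over the 498 fragments with no count of 0, the median size of the allelic effect was 0.39 in replicate 1, 0.97 in replicate 2 and 1.03 in replicate 3. The allele that was rarer in the input was the more active one in 269 of the 498 in replicate 1, in 298 of them in replicates 2 and 3, and in 176 of the 260 called in replicates 2 and 3. Between placements of a SNP, the allelic effects correlated with r = -0.110 to 0.160 over the 3 libraries and the 3 pairs of placements (n = 100 to 126 SNPs), as a description. The part of input abundance in the allelic effects was not tested.

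The gene lists were read by counts beside the 12.9% of all alleles called. Voltage-gated calcium channel genes had 0 called of 8 alleles, and their largest fitted values were in CACNA1C, the pore subunit gene of an L-type channel, at -2.17 ± 1.83, with 2848, 0 and 544 RNA counts, and in CACNA2D2, an accessory subunit gene, at 0.70 ± 1.74, with 1226, 439 and 0. Glutamate receptor genes had 1 called of 19, in GRM3, a metabotropic receptor gene, at -0.71 ± 0.16 from 6591, 3448 and 4287 RNA counts and an input mean of 7967.0. Of 10 protocadherin and cadherin alleles 2 were above the input, the protocadherin gamma allele and 1 in CDH16, a kidney cadherin gene, at 0.76 ± 0.12. The list of transcription factor and chromatin genes had 24 alleles, of which 5 lay in SMG6, an endonuclease gene of nonsense-mediated decay that is neither. Of the 24, the TCF4 allele was below the input and 1 in PBRM1, a SWI/SNF subunit gene, above it at 1.18 ± 0.26, and 0 were called in SMG6. The list drawn up for synaptic genes had SNPs in MSRA alone, the methionine sulfoxide reductase gene, so that no gene of a synaptic protein was covered. Of these 15 MSRA alleles 3 were called, all allele 2 of 1 SNP, at 1.49 with 50 bases in front, 1.43 with 100 and -1.68 with 150. No SNP lay in a dopamine or noradrenaline gene of the list.

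Other genes at schizophrenia loci had 74 alleles, with 6 called above and 6 called below the input. Above it were MAD1L1, a spindle checkpoint gene (1.70 ± 0.17 and 0.78 ± 0.15, at separate SNPs), GATAD2A, a NuRD subunit gene (1.76 ± 0.29), FURIN, a proprotein convertase gene (0.72 ± 0.16), and MAU2 (1.18 and 0.89). Below it were PLCL1 (-3.79 and -3.54), MAU2 (-4.35 and -1.05), ITIH1 (-2.42) and CNNM2 (-2.33). At the MAU2 SNP at position 19329257 of chromosome 19, allele 1 had 34602, 23209 and 26420 RNA counts against 16326, 13776 and 17007 in the input with 100 bases in front, and was the low allele given above with 150. The median activities of the lists lay between -0.58 (glutamate receptor genes) and 0.22 (protocadherin and cadherin genes), against -0.01 over all alleles. Of the alleles with a known position, 67.3% of those above and 61.2% of those below the input lay inside a gene, against 66.5% of all.

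Against the RNA of the other 3 lines, 0 of 1436 alleles present in all 4 tables passed the Benjamini-Hochberg threshold by edgeR, DESeq2 or limma-voom. At an unadjusted p of 0.05 edgeR listed 20 (1.39%), 8 higher and 12 lower in SH-SY5Y, against 39 by DESeq2 and 37 by limma-voom, and the interquartile range of the differences was -0.24 to 0.31. The smallest p was that of allele 1 of a SNP 5512 bases from PPDPF (chromosome 20, position 63515229, 150-base placement). It had 7477, 8895 and 5992 counts in SH-SY5Y, against 18273, 16337 and 11955 in Neuro-2a, 8021, 10446 and 8532 in HEK-293T and 14590 and 13912 in PC-12. The difference in log2 CPM was -0.92 ± 0.24 (SE; edgeR unadjusted p = 0.00398, adjusted p = 1.00), and allele 2 of the fragment stood at -0.78 ± 0.26. SH-SY5Y and HEK-293T overlapped there and both lay below the other lines. PCNX3 was on the opposite side, where allele 1 had 0.88 ± 0.31 in the 150-base and 1.22 ± 0.44 in the 50-base placement. The smallest p on that side was that of allele 2 of rs3900555, at 0.61 ± 0.19 (edgeR unadjusted p = 0.0114). Without replicate 1 of every line 1 allele passed, allele 1 of the STAG1 fragment described above, at 1.88 ± 0.14 (edgeR Benjamini-Hochberg adjusted p = 0.0325).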

How the data were processed

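The deposited table of SH-SY5Y gives raw counts of reads, unnormalized, with 1 column per allele and library, per the file headers. Per the labels' protocols, the input was amplified from the plasmid pool before transfection, polyadenylated RNA was reverse-transcribed and amplified, and reads were paired-end. The submitters' processing notes name limma 3.40.6, and how reads were aligned and counted, and on which build, was not given in the sources used here. Replicate 2 of PC-12 and the bases of the alleles were not used here.

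Counts were scaled by TMM and tested in R 4.3.3 with the quasi-likelihood test of edgeR 4.0.16 (two-sided, Benjamini-Hochberg over all alleles or fragments of the table, threshold 0.05). Activity was RNA against input. The allelic effect was the interaction of allele with RNA, in a fit with library and allele. The SE is the estimate over the root of its F statistic. Activity by library sets 1 RNA library against the mean of the inputs, with 0.5 counts added, and values with a count of 0 were left out of its summaries except where stated. With replicate 1 alone the spread came from the inputs. Fits were tested on simulated data that gave RNA and input the same dispersion. The real RNA libraries differed more, with a chi-square per degree of freedom of 361 to 1526, against 42.5 to 45.9 between input libraries. The simulation did not cover that difference. No 2 libraries agreed within sampling noise (smallest chi-square per degree of freedom 42.5). Libraries of SH-SY5Y and another line that share a replicate number deviated together (r = 0.228 to 0.710 for all 8 pairs), and the number as a block left the count between lines at 0.

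Members, gene lists and tests were chosen with earlier results of these data known. Named were the 8 highest and 8 lowest alleles past the threshold with 1 sign, the 5 highest and 5 lowest fragments with both alleles called, with the remaining ones added after their values were seen, the 4 SNPs with the most called alleles in each direction (ties included), the 6 largest allelic effects in each direction at an unadjusted p of 0.05 with no count of 0, the 5 largest of replicates 2 and 3, and the called members of the lists. Against the other lines none passed, and the fragments named were chosen after their values were seen, PCNX3 not by the rank of its p. Alternatives were DESeq2 1.42.0 size factors and tests, limma 3.58.1 (voom, and log2 ratios with 1 count added), a higher or no filter on low counts (50 or none), no counts of 0, each library left out, the replicate block, and genes within 10 kb. Promoter stretches are from the RefSeq table of GRCh38.p14.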

Additional observations from a re-analysis of the deposited data

How the results depend on the processing

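The 202 calls of activity were 211 with DESeq2 size factors, 186 with limma-voom (72 above and 114 below the input, which turns the balance) and 202 with a minimum of 50 counts or none. They were 474 by DESeq2, 0 by limma on log2 ratios (361 at an unadjusted p of 0.05), 327 without alleles that had a count of 0, and 3 to 858 when a library was left out, with 858 without RNA replicate 1, 193 and 200 without RNA replicates 2 and 3 (88 and 91 above the input, 105 and 109 below) and 3 without any 1 input library (MANBA, MAU2 and PLCL1). The 858 of replicates 2 and 3 were 1044 by DESeq2, 904 by limma-voom and 893 without counts of 0, and 580 to 1380 when a library was left out, the upper values (1346 and 1380) from a single RNA library with the spread of the inputs. The single allelic effect became 27 by DESeq2, 0 by limma-voom (89 unadjusted), 0 by limma on log2 ratios (33 unadjusted) and 0 to 282 when a library was left out. Leaving out RNA replicate 1 gave 282, RNA replicate 2 or any input library 0, and RNA replicate 3 gave 2, the added one being a fragment near ALMS1. The 282 of replicates 2 and 3 were 388 by DESeq2, 294 by limma-voom and 309 without counts of 0, and 174 to 537 when a library was left out. The count of 0 against the other lines was 0 by each other test and 0 to 1 when libraries were left out, the 1 being STAG1 without replicate 1 of every line. The 22 fragments with both alleles called were 67 by DESeq2, 44 without counts of 0, 23 by limma-voom and 0 to 116 when a library was left out, in alternatives added after the data were seen. RNA and input deviations of 1 replicate number correlated with r = 0.0278 to 0.0524, each the best match of its RNA library but under 0.1, so that the libraries were taken to share a number only. With the replicate number as a block, 1 allele (MANBA) and 0 allelic effects (36 unadjusted) passed, and 0 against the other lines (85 unadjusted). Over all alleles 12.9% were called, and alleles and placements of a SNP share sequence. Genes within 10 kb raised the calls at other schizophrenia loci to 21 of 99 alleles, against 12 of 74. They raised the transcription factor and chromatin list to 29 alleles, against 24, with 2 called either way, and left the other lists as they were. Of the 59 named alleles and 12 named allelic effects followed through these alternatives, none reversed direction. They had been chosen with 1 sign in every RNA library, and the alternatives reuse the same counts. A reversal was thus hardly possible, and its absence is no separate support. Of the 59 alleles, 56 no longer passed without any 1 input library, and 58 with the replicate block. The causes were not tested beyond the number of libraries each alternative leaves. The median allele had a mean of 3730.8 counts, so that depth limits mainly the rare alleles.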

Other observations

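By chromosome, the share of alleles called above the input, 7.43% over all alleles, was highest on chromosomes 14 (5 of 35, 14.3%), 16 (12 of 87, 13.8%), 19 (11 of 80, 13.75%) and 3 (21 of 153, 13.7%). On chromosomes 9 and 13, 0 of 59 and 0 of 23 alleles were above it. These chromosomes were singled out after their values were seen, and placements of a SNP share sequence.

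Some alleles had larger fitted values than any called allele and did not pass, with libraries that lay far apart or held a count of 0. Allele 2 in GATAD2A with 50 bases in front had 230, 17340 and 13860 RNA counts in replicates 1, 2 and 3. Its input counts were 0, 60 and 74, with a mean of 44.7. The fitted activity was 8.14 ± 2.39 (SE, n = 3 and 3; edgeR Benjamini-Hochberg adjusted p = 0.0722). In the 100-base placement of the called PLCL1 SNP, allele 2 had 0, 126 and 181 RNA counts with an input mean of 8337, and allele 1 had 139, 109 and 0 with an input mean of 6738.7. With 150 bases in front, that PLCL1 SNP (position 198058744 of chromosome 2) lay on the other side, with fitted values of 1.25 ± 0.63 for allele 2 and 1.55 ± 0.67 for allele 1 that did not pass. Allele 1 in ITIH1 with 50 bases in front had 0, 5705 and 4501 with an input mean of 50 counts.

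In STAG1, allele 1 of the 100-base placement had 24960, 10272 and 9192 counts in the RNA, against 9858, 671 and 11134 in the 3 input libraries, and its activity of 1.07 ± 0.87 did not pass. A low count in 1 of 3 input libraries was also seen for the called LIN28B allele, with 16250, 6305 and 16580.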
